A study of Mus musculus with 9 samples.

Results

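A list of 38 mouse genes known to be switched on by interferon was followed through primary B cells whose antigen receptor had been crosslinked. The genes were chosen by symbol, and each is represented by its brightest probe on average. Of the 38, 37 had a probe on the array, 30 were measured above noise on at least 3 of 9 arrays and were tested, 7 were too dim, and Ifi44 is not analysed here. The tested genes stand among 14640 features tested and 45281 probes in all. The cells were primary splenic B lymphocytes of C57BL/6 mice aged 8 weeks. The labels give 3 groups of 3 arrays: untreated cells, cells after 1 h and cells after 2 h with a goat F(ab')2 antibody to mouse IgM at 2.5 µg/ml, which clusters the antigen receptor. The series text speaks of 3 h instead, and the times used here are those of the labels. Further agents, CD40L (200 ng/ml) and IL-4 (5 ng/ml), appear in the treatment protocol without a statement of which arrays they belong to. Nothing in the labels ties the replicates to separate mice or cultures, so p-values reflect the scatter among these arrays alone, and that scatter could be technical.

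Type I interferons bind a receptor on almost every cell type, and the receptor's kinases phosphorylate STAT2. It joins IRF9 in a complex named ISGF3, which enters the nucleus and binds the interferon-stimulated response element (ISRE) in the promoters of its target genes. Interferon gamma acts through a different receptor, and promoters of its target genes carry the gamma-activated site (GAS). The induced proteins sense foreign nucleic acid, block viral entry, translation and release, and feed back on the pathway. Resting lymphocytes are known to keep a low tonic level of some of these genes. In B cells, interferon tunes antigen receptor and Toll-like receptor responses.

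Promoter letters are shown for 7 members, chosen to set the ISRE and GAS beside the values that follow: Stat2, Gbp3 and Gbp2, whose levels differed widely between arrays, Isg15 and Ifit3, which were tested at low intensities, Irf1, which holds a GAS, and Trim25, the member with the second widest range over the 9 arrays on the log2 scale, which holds neither motif here. The motifs searched on both strands were a pair of GAAA separated by any 2 bases for the core of the ISRE and TTCNNNGAA for the GAS, and matches that overlap each other were all counted. Of 29 members with a window of 250 bases before to 50 after the gene's start in RefSeq (GRCm38.p6), 13 held the ISRE core, against 3.99% of all 27025 genes with windows. The GAS was held by 9 of the 29, against 9.55% of all genes. The ISRE core was in 9 of 24 tested members with a window and in all 4 dim members with one. A match is a description of the letters and not evidence of binding. The 250 bases before the start are printed from 5′ to 3′ on the gene's strand, with ISRE and GAS matches in capitals, for Stat2 (chr10:128270248-128270497, plus strand), Irf1 (chr11:53769764-53770013, plus strand), Gbp3 (chr3:142559794-142560043, plus strand), Gbp2 (chr3:142620413-142620662, plus strand), Isg15 (chr4:156200819-156201068, minus strand), Ifit3 (chr19:34583279-34583528, plus strand) and Trim25 (chr11:88999153-88999402, plus strand).
Stat2: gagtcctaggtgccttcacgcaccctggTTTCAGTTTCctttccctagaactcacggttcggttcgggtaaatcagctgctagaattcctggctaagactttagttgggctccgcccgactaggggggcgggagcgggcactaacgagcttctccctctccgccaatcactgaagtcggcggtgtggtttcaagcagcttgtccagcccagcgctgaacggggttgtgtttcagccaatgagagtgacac
Irf1: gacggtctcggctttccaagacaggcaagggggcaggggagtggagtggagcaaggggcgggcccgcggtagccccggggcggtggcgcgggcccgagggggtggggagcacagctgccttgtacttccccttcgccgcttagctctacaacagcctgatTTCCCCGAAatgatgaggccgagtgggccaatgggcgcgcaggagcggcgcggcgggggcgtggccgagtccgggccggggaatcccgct
Gbp3: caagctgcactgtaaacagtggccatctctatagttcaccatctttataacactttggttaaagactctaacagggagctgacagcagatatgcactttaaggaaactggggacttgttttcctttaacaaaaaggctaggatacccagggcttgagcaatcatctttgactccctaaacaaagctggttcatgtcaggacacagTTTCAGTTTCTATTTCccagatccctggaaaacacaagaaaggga
Gbp2: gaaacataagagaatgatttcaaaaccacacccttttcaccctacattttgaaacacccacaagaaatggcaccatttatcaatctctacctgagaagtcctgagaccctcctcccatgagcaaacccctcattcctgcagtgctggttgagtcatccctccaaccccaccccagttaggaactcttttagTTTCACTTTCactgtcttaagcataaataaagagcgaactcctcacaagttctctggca
Isg15: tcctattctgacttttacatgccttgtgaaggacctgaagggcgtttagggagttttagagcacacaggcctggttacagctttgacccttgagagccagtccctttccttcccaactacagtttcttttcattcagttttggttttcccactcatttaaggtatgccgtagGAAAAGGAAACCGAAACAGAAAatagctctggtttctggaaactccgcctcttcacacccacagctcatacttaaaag
Ifit3: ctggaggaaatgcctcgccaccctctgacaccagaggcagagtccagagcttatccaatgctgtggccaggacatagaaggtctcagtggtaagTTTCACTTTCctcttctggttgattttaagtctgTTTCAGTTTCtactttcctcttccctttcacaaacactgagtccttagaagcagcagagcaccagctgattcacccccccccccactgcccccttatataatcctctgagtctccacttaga
Trim25: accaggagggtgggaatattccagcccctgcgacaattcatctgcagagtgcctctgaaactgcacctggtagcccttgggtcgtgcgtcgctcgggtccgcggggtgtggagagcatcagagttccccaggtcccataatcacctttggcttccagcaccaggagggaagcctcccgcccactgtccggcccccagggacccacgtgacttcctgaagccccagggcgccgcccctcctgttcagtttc
In Isg15 3 overlapping ISRE cores form 1 run whose first base lies at -78, with the annotated start counted as 0. Gbp3 has 2 overlapping cores from -45, and Ifit3 has separate cores at -156 and -122. The only match in the Stat2 window starts at -222, and the GAS of Irf1 starts at -90. For Ifit3 and Gbp3 the start used by the promoter table lies inside the gene's annotated span.

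The arrays were alike in brightness but did not all follow their labels. Between 19088 and 19112 probes were above noise per array, and upper quartiles of the intensities differed by at most 0.347%. Of 9 B cell markers with a probe, 8 were above noise on at least 3 arrays, among them Cd79b, Ms4a1 and Pax5, and Cr2 was not. Pax5 lay close to noise, at -1.19 to 15.9 over the 9 arrays. The immediate-early gene Egr1, which antigen receptor signals induce, read 1054, 8548 and 876 in untreated replicates 1 to 3, 10635, 4017 and 12904 after 1 h, and 6918, 1279 and 7311 after 2 h. Myc, a growth factor-induced transcription factor gene, read 57.0, 798 and 70.0 in untreated cells, 840.5, 583 and 816 after 1 h, and 876, 56.4 and 801 after 2 h. Untreated replicate 2 was thus high and 2 h replicate 2 low against the other 2 arrays of their labels. Results are therefore given with all 9 arrays and again without the 3 arrays numbered replicate 2, a set chosen from earlier results of these same arrays, which makes the p-values of such fits too small and leaves them a description.

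Of the dim members, 6 were above noise on no array and Mx2 on 1. Ifit1, Mx1, Mx2, Oas1a and Oas3, which encode classic antiviral proteins, the RNA sensor gene Ifih1 and Parp9 had intensities from -9.54 to 6.89 over all arrays, against a noise threshold of 6.44 to 6.45. No change in these genes could be measured at this signal. Next to the threshold, Irf7 passed with 3 arrays above noise, and Mx2 missed it with its highest intensity of 6.89. Of the 30 tested members, 17 were above noise on all 9 arrays.

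Among the transducers and transcription factors, Stat2 and Irf9, the ISGF3 subunits measured here, were low on the same arrays of each label. Stat2 (chromosome 10, 128270498 to 128292853, GRCm38.p6) read 90.9, 32.7 and 90.3 in untreated cells, 46.3, 29.97 and 45.6 after 1 h and 11.9, 88.6 and 2.60 after 2 h. Irf9 (chromosome 14, 55603985 to 55610030), the DNA-binding subunit, read 568, 247 and 544 in untreated cells, 449, 192 and 397 after 1 h and 269, 515 and 188 after 2 h. Untreated replicate 2 and 1 h replicate 2 were the lowest of their labels for both genes, 2 h replicate 2 was the highest of its label, and the labelled groups overlapped. Log2 differences, here and below on the scale of log2(intensity + 50) with limma's standard error and 3 arrays a group, were -0.38 ± 0.36 for Stat2 and -0.34 ± 0.42 for Irf9 between 1 h and untreated. They were -0.62 ± 0.36 and -0.45 ± 0.42 between 2 h and untreated, in the same order. By limma with Benjamini-Hochberg adjustment over all features, the adjusted p was 1 for both at 1 h and 0.908 for both at 2 h. In bulk samples such as these, fewer cells of a type and less RNA per cell cannot be told apart.

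Irf1 and Irf7 gave another picture. Irf1 (chromosome 11, 53770014 to 53778374), a transcription factor gene that interferon gamma and NF-kappaB signals are known to induce, read 2453, 2067 and 2388 in untreated cells, 2918, 1575 and 2515 after 1 h and 2126, 2271 and 1026 after 2 h. The arrays 1 h replicate 2 and 2 h replicate 3 were low, untreated replicate 2 lay close to the other untreated arrays, and all groups overlapped. Its log2 difference was -0.02 ± 0.32 at 1 h and -0.42 ± 0.32 at 2 h (adjusted p = 1 and 0.908, limma), and the 2 h difference was -0.06 without 2 h replicate 3. The 1 h difference was positive, at 0.08, when the gene's probes were averaged. Irf7 (chromosome 7, 141263183 to 141266499), the factor that amplifies interferon production, was above noise on untreated replicate 3 and on 1 h replicates 1 and 3, at 6.86, 13.9 and 10.9. It was not above noise on any 2 h array, at 1.89, 3.15 and -0.585, nor on untreated replicates 1 and 2, at 2.24 and 3.84. The mean of the 1 h arrays was at least 1.05-fold that of the 2 h arrays on this scale (adjusted p = 0.78, limma), a bound set by the noise threshold. It was carried by 1 h replicates 1 and 3, since 1 h replicate 2 read 2.88, below the 3.15 of 2 h replicate 2, and the groups overlapped.

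**Figure D1:**
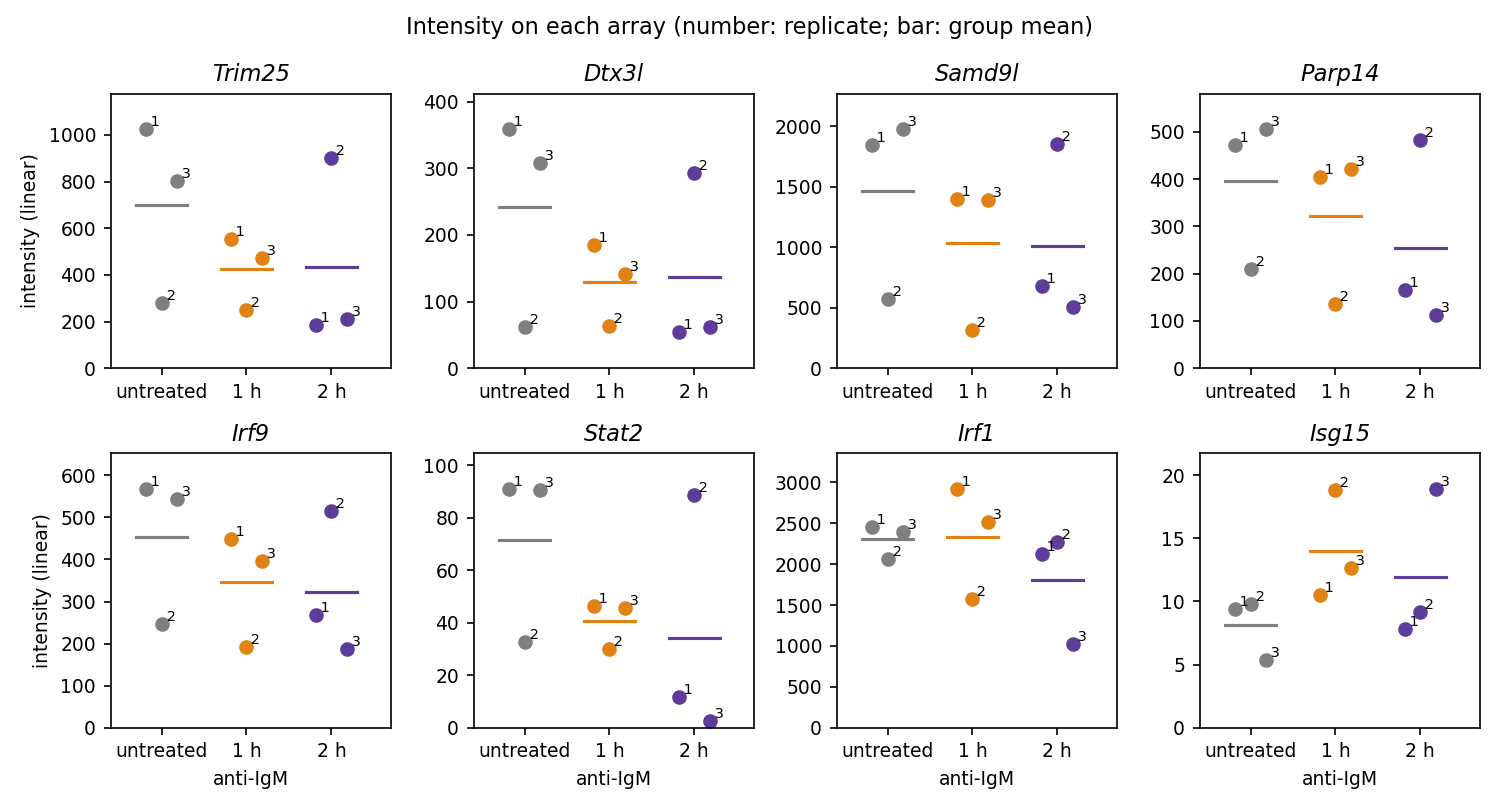
Linear intensity (vertical axis, from 0) of 8 members on each of the 9 arrays, by label (horizontal axis). Numbers give the replicate and bars the group mean. For Trim25, Dtx3l, Samd9l, Parp14, Irf9 and Stat2 the array numbered 2 is the lowest of the untreated and the 1 h arrays and the highest of the 2 h arrays, while Isg15 ranges from 5.37 to 18.9.

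The widest ranges were found for Samd9l, Trim25 and Dtx3l, which were named by the size of their range or difference. Trim25 (chromosome 11, 88999403 to 89020294), a ubiquitin ligase gene needed for signalling by the RNA sensor RIG-I, read 1024, 278 and 803 in untreated cells, 554, 249 and 474 after 1 h and 187, 903 and 211 after 2 h. The highest array was 5.47 times the lowest. Dtx3l (chromosome 16, 35926515 to 35939027), a ubiquitin ligase gene whose product pairs with PARP9, read 359, 61.6 and 308 in untreated cells, 184, 62.8 and 142 after 1 h and 54.3, 293 and 61.7 after 2 h. Untreated replicates 1 and 3 and 2 h replicate 2 were high, 1 h replicates 1 and 3 lay between, and the other 4 arrays were low for both genes. Samd9l (chromosome 6, 3372257 to 3399571), a gene for a growth-restraining and antiviral protein, read 1841, 571 and 1975 in untreated cells, 1398, 317 and 1389 after 1 h and 677, 1856 and 508 after 2 h. The 1 h replicates 1 and 3 of Samd9l lay nearer to its high arrays, and the lowest array was 1 h replicate 2. Parp14 (chromosome 16, 35831892 to 35871518), an ADP-ribosyltransferase gene and a cofactor of STAT6 in IL-4 signalling, read 473, 210 and 505 in untreated cells, 405, 136 and 422 after 1 h and 166, 483 and 112 after 2 h. It shared the high and low arrays of Samd9l, except that its lowest array was 2 h replicate 3.

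For these 4 genes the difference between labels was no larger than its error or little above it. Between 2 h and untreated, log2 differences were -0.78 ± 0.62 for Trim25, -0.68 ± 0.61 for Dtx3l, -0.67 ± 0.54 for Parp14 and -0.54 ± 0.71 for Samd9l, with adjusted p-values of 0.908 to 0.911 by limma. Between 1 h and untreated they were -0.55 ± 0.62, -0.56 ± 0.61, -0.31 ± 0.54 and -0.55 ± 0.71, in the same order. Without untreated replicate 2, Trim25 and Dtx3l had -1.07 and -1.15 at 1 h, and without untreated replicate 1 they had -0.21 and -0.22. Without 1 h replicate 2, Samd9l and Parp14 were positive at 1 h, at 0.11 and 0.13. At 2 h no array turned the sign: Trim25 lay between -1.43 (without 2 h replicate 2) and -0.43 (without 2 h replicate 1).

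Of the ubiquitin-like modifier system, Isg15 (chromosome 4, 156199424 to 156200818), which encodes the modifier itself, stayed close to noise on all arrays. Its promoter holds the run of 3 overlapping ISRE cores printed above. Its intensities were 9.37, 9.76 and 5.37 in untreated cells, 10.5, 18.8 and 12.6 after 1 h and 7.78, 9.18 and 18.9 after 2 h. Each 1 h array was above each untreated array, which 2.64% of all features showed, and the log2 difference of 0.14 ± 0.10 did not pass (adjusted p = 1, limma). Usp18, the protease gene that removes ISG15 and restrains the receptor, read 20.4, 7.27 and 45.1 in untreated cells, 16.3, 7.56 and 16.8 after 1 h and 12.6, 22.4 and 8.56 after 2 h. Its differences were -0.20 ± 0.18 at 1 h and -0.18 ± 0.18 at 2 h, with all groups overlapping.

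Sensors and enzymes of double-stranded RNA differed among themselves. Eif2ak2 (chromosome 17, 78850504 to 78882572), the kinase PKR that halts translation, read 496, 395 and 515 in untreated cells, 462, 241 and 446 after 1 h and 354, 410 and 352 after 2 h. Dhx58, the gene of the RIG-I-like helicase LGP2, read 103, 64.8 and 120 in untreated cells, 97.6, 58.9 and 105 after 1 h and 51.4, 98.97 and 50.2 after 2 h. In both genes, as in Stat2, the array numbered 2 was the lowest untreated and 1 h array and the highest 2 h array. Adar (chromosome 3, 89714469 to 89753455), which edits adenosine in double-stranded RNA, read 159, 213 and 151 in untreated cells, 184, 154 and 274 after 1 h and 125, 157 and 90.8 after 2 h, so here untreated replicate 2 was the highest of its label. Its difference of -0.53 ± 0.21 between 2 h and 1 h was the only one of the 30 members with an unadjusted p under 0.05 in any of the 3 contrasts (adjusted p = 0.687, limma). Probes of Adar disagreed in sign in each of the 3 contrasts. The oligoadenylate synthetase relatives were near noise. Oasl1 read 18.8, 15.9 and 19.0 in untreated cells, 15.8, 5.04 and 11.8 after 1 h and 19.2, 28.2 and 2.63 after 2 h. Each of its 1 h arrays was below each untreated array, as was found for 2.37% of all features, with a log2 difference of -0.16 ± 0.15 (adjusted p = 1, limma). Oasl2 read 41.6, 6.60 and 53.4 in untreated cells, 15.2, 5.78 and 30.8 after 1 h and 13.4, 24.1 and 4.09 after 2 h. Zbp1, a sensor of Z-form nucleic acid, and Oas2 had differences between -0.06 and 0.05 from untreated.

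Of 8 tested genes for direct antiviral effectors, 4 had differences below 0 and 4 above 0 at each time against untreated. Ifit2 (chromosome 19, 34550550 to 34576534), which binds foreign RNA and blocks its translation, read 52.9, 11.4 and 56.3 in untreated cells, 17.5, 14.4 and 12.0 after 1 h and 6.03, 56.2 and 6.11 after 2 h. Its neighbour Ifit3 (34583119 to 34588982 on the same chromosome), with 2 ISRE cores, read 17.0, 7.58 and 20.3 in untreated cells, 24.0, 12.9 and 17.0 after 1 h and 17.7, 22.2 and 10.9 after 2 h. For Ifit2 the untreated replicates 1 and 3 and 2 h replicate 2 stood far above the other 6 arrays, while the arrays of Ifit3 lay closer together. Isg20 (chromosome 7, 78913396 to 78920396), an exonuclease gene, read 30.1, 9.62 and 37.7 in untreated cells, 17.8, 3.14 and 20.5 after 1 h and 36.6, 33.0 and 6.55 after 2 h. Bst2, the tetherin gene, read 17.0, 7.32 and 28.8 in untreated cells, 44.7, 30.4 and -0.536 after 1 h and 14.9, 12.2 and 28.3 after 2 h. Ifitm3 (chromosome 7, 141009590 to 141010744), whose product blocks viral fusion, read 7.09, 32.5 and 48.4 in untreated cells, 31.1, 79.4 and 29.96 after 1 h and 36.9, 9.10 and 44.8 after 2 h. In Ifitm3, the member with the largest positive difference at 1 h, the array 1 h replicate 2 was the highest and untreated replicate 1 the lowest, unlike in Ifit2. Log2 differences from untreated were 0.29 ± 0.28 at 1 h and 0.02 ± 0.28 at 2 h for Ifitm3, and 0.10 ± 0.24 and 0.02 ± 0.24 for Bst2. They were -0.44 ± 0.29 and -0.34 ± 0.29 for Ifit2, and -0.24 ± 0.21 and -0.01 ± 0.21 for Isg20. Rsad2, the viperin gene, read 3.18 to 10.7 over the 9 arrays, and Cmpk2, a mitochondrial nucleotide kinase gene, read -5.42 to 32.0. No difference in this set passed (adjusted p = 1 at 1 h and at least 0.908 at 2 h, limma).

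The guanylate-binding protein genes Gbp2 and Gbp3, whose products attack vacuoles of intracellular microbes, shared with Irf9 a low level on replicate 2 of the untreated and 1 h labels. Gbp2 (chromosome 3, 142620663 to 142638008) read 190, 93.0 and 253 in untreated cells, 225, 48.3 and 166 after 1 h and 140, 160 and 71.9 after 2 h. Gbp3 (142560016 to 142573213 on the same chromosome) read 154, 49.6 and 163 in untreated cells, 153, 19.9 and 134 after 1 h and 60.4, 135 and 34.3 after 2 h. Both were lowest on 1 h replicate 2 and highest on untreated replicate 3. Their differences at 2 h were -0.36 ± 0.43 and -0.44 ± 0.49. Among the 4 tested genes of other kinds, Rtp4, a chaperone gene for receptors, read 6.26, 13.4 and 0.600 in untreated cells, 8.997, 1.59 and 1.49 after 1 h and 11.0, 7.99 and 6.61 after 2 h, around the noise threshold. Ifi35, Xaf1, Rtp4 and Lgals3bp had differences of -0.22 to 0.05 at 2 h.

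**Figure D2:**
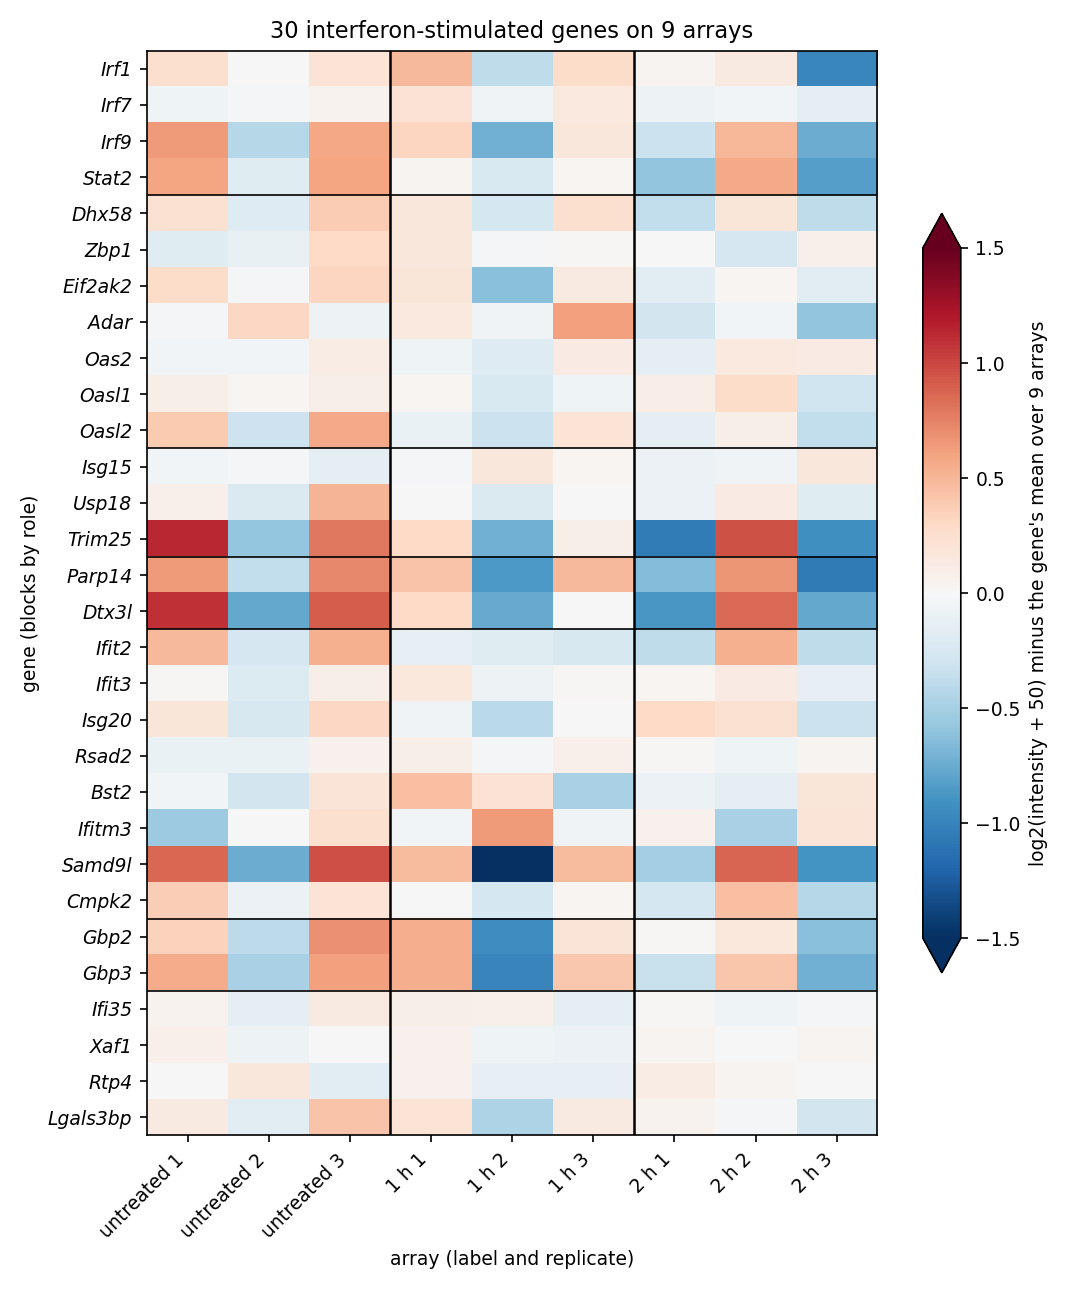
Level of the 30 tested members (rows, in blocks by role) on the 9 arrays (columns), as log2(intensity + 50) minus the gene's mean over the arrays, with red above and blue below that mean. Untreated replicates 1 and 3 and 2 h replicate 2 are red in Trim25, Dtx3l, Samd9l, Parp14, Irf9, Stat2 and Ifit2, and 1 h replicate 2 is the lowest array for 7 members.

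Seen array by array, 21, 3 and 27 of the 30 tested members were above their own mean on untreated replicates 1, 2 and 3. The counts were 22, 4 and 22 on the 1 h arrays and 12, 20 and 8 on the 2 h arrays. Untreated replicate 3 was the highest array for 13 members, against 12.3% of all features, and 2 h replicate 3 was the lowest for 10, against 14% of all features. The members' median centred log2 level was 0.16, -0.17 and 0.31 in untreated cells, 0.15, -0.23 and 0.06 after 1 h and -0.09, 0.13 and -0.31 after 2 h, where that of all features stayed between -0.02 and 0.01. The median spread within labels (residual standard deviation) was 0.30 for the members and 0.20 for all features on the log2 scale, and among members it ran from 0.07 for Xaf1 to 1.01 for Samd9l.

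**Figure D3:**
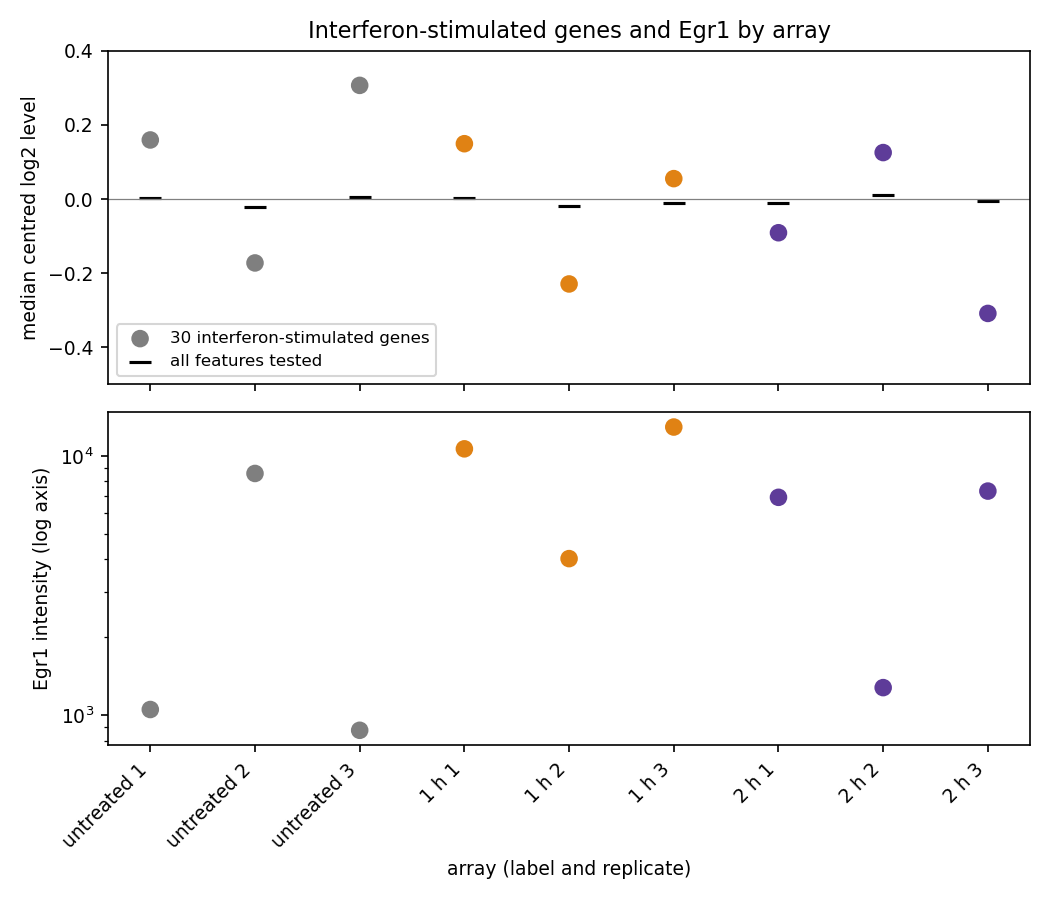
Upper panel: median over the 30 tested members of the centred log2 level on each array (points) and the same over all features (dashes). Lower panel: Egr1 intensity on a log axis. Untreated replicate 2, at -0.17, is the only untreated array with a member median below 0 and has an Egr1 intensity of 8548. The array 2 h replicate 2, at 0.13, is the only 2 h array above 0 and has 1279. The 1 h arrays go the other way: replicate 2, with the lowest 1 h Egr1 intensity of 4017, has a member median of -0.23. The 1 h replicates 1 and 3 have 10635 and 12904, with medians of 0.15 and 0.06.

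Cells at 1 h were set against untreated cells to ask what moved in the first hour after receptor crosslinking. By limma 0 of 30 tested members were called, where 0% of all features were. None had an unadjusted p under 0.05, against 1.29% of all features. The median log2 difference of the members was -0.17, with 22 below 0 and 8 above, beside a median of -0.00 and 51.4% below 0 for all features. Differences ran from -0.56 for Dtx3l to 0.29 for Ifitm3. The sign of the median rested on 1 array: it was 0.03 without 1 h replicate 2 and -0.29 without untreated replicate 2. Without the 3 arrays numbered replicate 2, Trim25 (-0.77), Dtx3l (-0.85), Stat2 (-0.55) and Ifit2 (-0.69) passed as lower, 4 of 30 where 3.39% of all features were lower and 3.95% higher, and none passed as higher. The members' median was then -0.11. Between same-numbered arrays of these labels, 12 of 30 members were lower at 1 h in all 3 pairs, where 14.5% of all features were, and 2 were higher in all 3, where 11.2% were. The 12 included Stat2, Irf9, Trim25, Samd9l, Parp14, Eif2ak2 and Gbp3. The labels do not pair arrays by number, and the values only set number 2 apart. With the number as a block in these 6 arrays, a fit chosen after seeing the data that leaves 2 residual degrees of freedom, limma called 0 of 30 members and 0% of all features, with a smallest adjusted p of 0.887 among members. In that fit 6 members had an unadjusted p under 0.05, against 5.26% of all features. These were Stat2, Irf9, Trim25, Dtx3l, Parp14 and Samd9l, all lower at 1 h, with Samd9l at -0.55 ± 0.12. With array weights estimated by limma from the same arrays 0 of 30 passed, where 0% of all features were lower and 0.00683% higher.

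Cells at 2 h were set against untreated cells to ask what had followed by the second hour. Here too limma called 0 of 30 tested members and 0% of all features, and no member had an unadjusted p under 0.05, against 4.98% of all features. The median difference was -0.23, with 22 below 0 and 8 above, beside -0.01 and 51.4% below 0 for all features. Differences ran from -0.78 for Trim25 to 0.09 for Isg15, and the 4 transcription factor genes, Dtx3l, Parp14, Gbp2 and Gbp3 were all below 0. In no member did the 3 arrays at 2 h lie all above or all below the untreated arrays, which 6.8% and 4.38% of all features did. The median stayed below 0 without any 1 array, between -0.36 without untreated replicate 2 and -0.10 without untreated replicate 3.

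Without the 3 arrays numbered replicate 2, 15 of 30 tested members passed as lower at 2 h than untreated, where 19% of all features were lower and 15.7% higher, and 0 passed as higher. They were Irf1, Irf9, Stat2, Dhx58, Eif2ak2, Oasl2, Usp18, Trim25, Parp14, Dtx3l, Ifit2, Samd9l, Cmpk2, Gbp2 and Gbp3. The log2 differences were then -1.94 for Trim25, -1.82 for Dtx3l, -1.62 for Samd9l, -1.53 for Parp14, -1.30 for Stat2 and -1.14 for Irf9, and the members' median was -0.41. The 15 that did not pass included Isg15 (0.14), Ifitm3 (0.28), Rsad2 (0.04), Bst2 (-0.03) and Ifit3 (-0.10). With array weights 12 of 30 were lower and 0 higher, where 18.6% of all features were lower and 15% higher. Both choices rest on the same arrays that they are applied to and are no firm test.

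**Figure D4:**
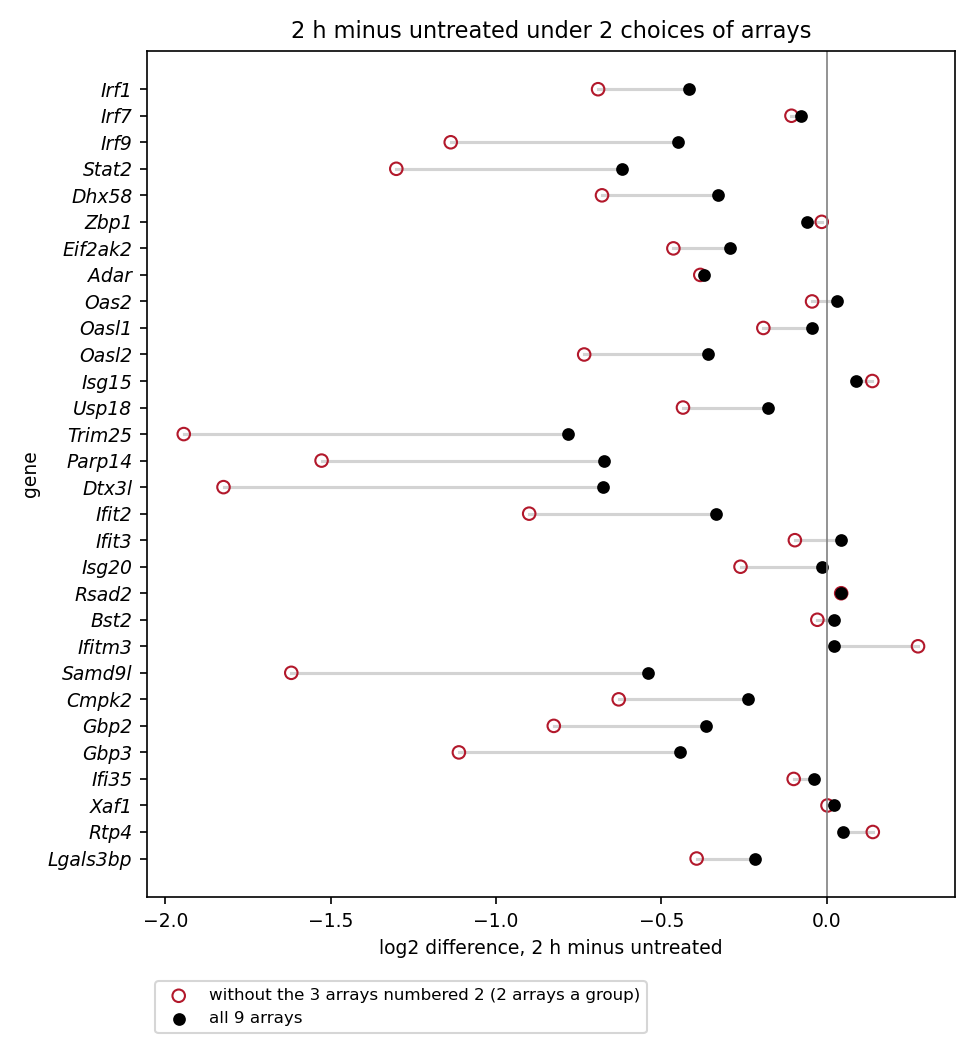
Log2 difference between 2 h and untreated (horizontal axis) of the 30 tested members (rows), with all 9 arrays (filled points) and without the 3 arrays numbered replicate 2 (open circles). Trim25 lies at -0.78 with all arrays and at -1.94 without the 3, and Isg15 at 0.09 and 0.14.

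Between 2 h and 1 h, limma called 0 of 30 tested members and 0% of all features, and 1 member, Adar, had an unadjusted p under 0.05, against 6.84% of all features. The median difference was -0.06, with 21 below 0 and 9 above, beside -0.01 for all features, where 51.4% were below 0. It was 0.05 without 1 h replicate 1 and -0.17 without 1 h replicate 2. The groups overlapped for each member, where 6.93% of all features were higher and 4.43% lower without overlap. Without the 3 arrays numbered replicate 2, 12 of 30 were lower, where 13.7% of all features were lower and 12.1% higher, with Parp14 at -1.31, Samd9l at -1.18, Trim25 at -1.18 and Adar at -0.81. With array weights 0 of 30 passed, where 0.0342% of all features were lower and 0.137% higher. Across the 3 groups, the moderated F-test of limma called 0 of 30 members and 0% of all features, with a smallest adjusted p of 0.977 among members. It had 0 members at an unadjusted p under 0.05, against 4.36% of all features. The F-test called 15 of 30 without the 3 arrays numbered replicate 2, where 35.1% of all features were called, and 10 of 30 with array weights, where 23.8% were. The 3 contrasts share arrays and are not independent of each other.

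**Figure D5:**
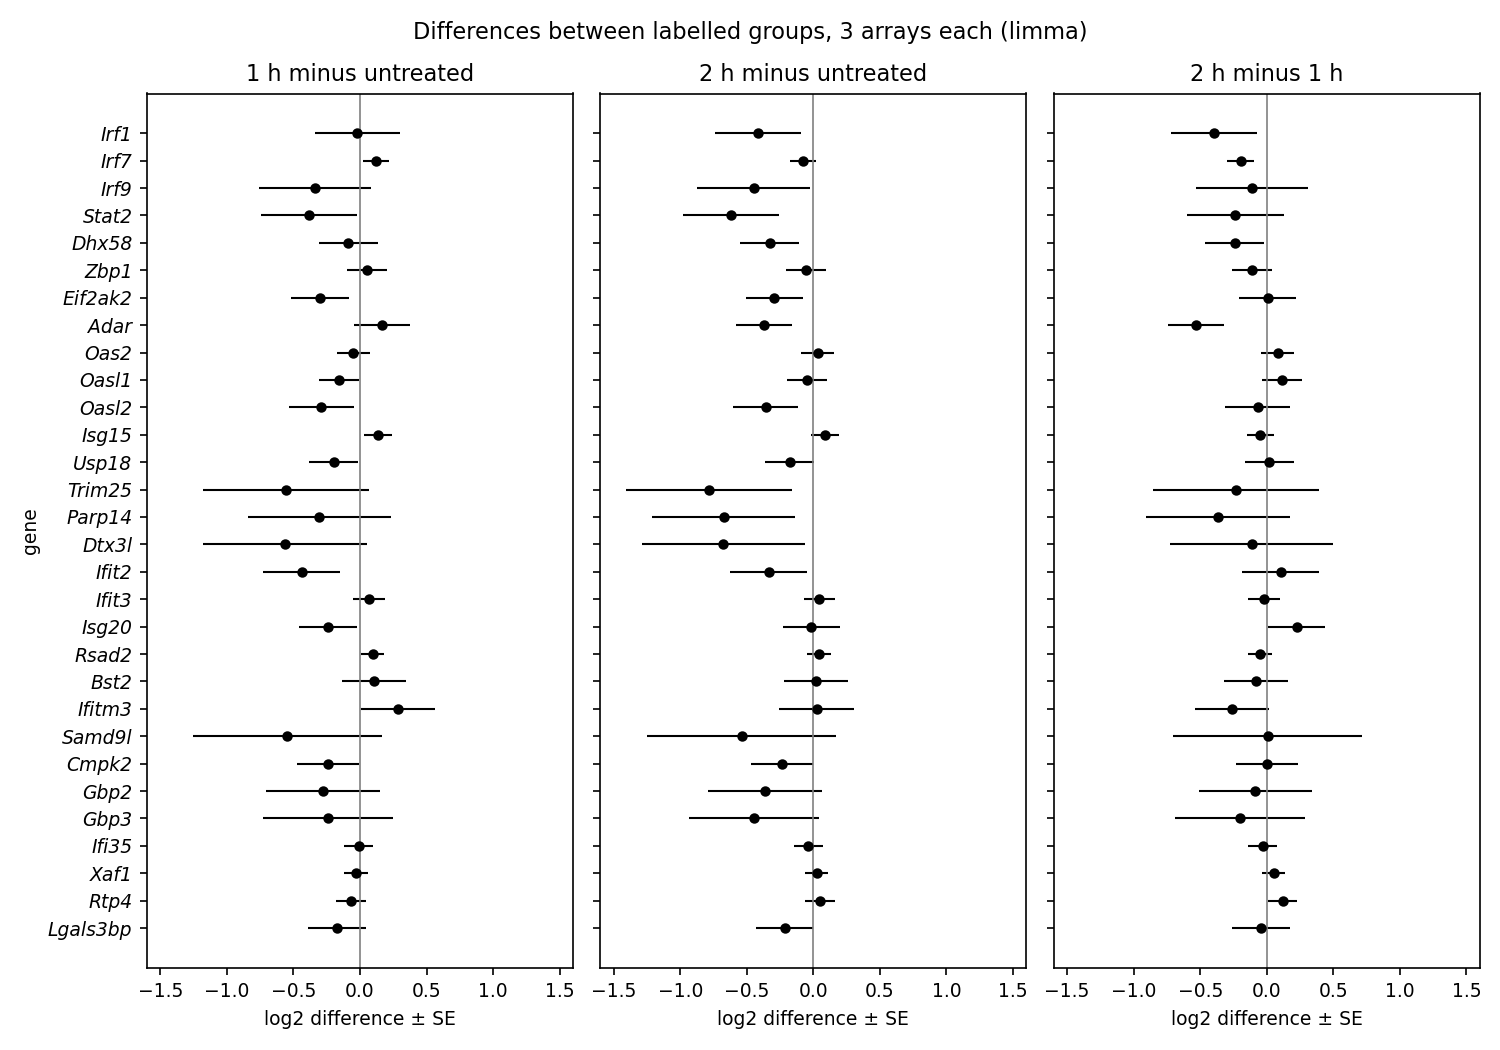
Log2 difference with limma's standard error (bars) of the 30 tested members for 1 h against untreated, 2 h against untreated and 2 h against 1 h, with 3 arrays a group. The values run from -0.56 to 0.29, from -0.78 to 0.09 and from -0.53 to 0.23, and no member passed the threshold.

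Upstream of these genes, no ligand or receptor gene was called with all 9 arrays. Of 13 interferon genes with a probe, 5 passed the filter. Of the 5, 1 was higher at 2 h than untreated without the 3 arrays numbered replicate 2, and 2 were with array weights. Ifna1 and Ifne were each above noise on 2 arrays at 1 h, 2 at 2 h and 0 untreated. They thus passed the filter only through treated arrays, which biases a count of higher genes upwards. Ifnab, a type I interferon gene, read 59.9, 56.6 and 75.9 in untreated cells, 77.9, 65.5 and 55.8 after 1 h and 102, 77.5 and 83.1 after 2 h. Each 2 h array was thus above each untreated array, as for 6.8% of all features (0.27 ± 0.12, adjusted p = 0.908, limma). Ifng, the interferon gamma gene, had 57.5 on 1 h replicate 2 and 1.55 to 25.9 on the other 8 arrays. Of 8 tested receptor and kinase genes, 3 were lower at 1 h, and 2 were higher and 3 lower at 2 h, than untreated without those 3 arrays. Array weights gave 2 higher and 3 lower at 2 h. These counts, and those of the further lists, stand beside the 15.7% higher and 19% lower of all features at 2 h without the 3 arrays, and 15% and 18.6% with array weights. At 1 h without the 3 arrays, 3.95% of all features were higher and 3.39% lower. Jak1, a kinase of the type I and gamma interferon receptors, had 118, 147 and 135 at 2 h, against 70.8, 78.3 and 60.4 untreated, again with no overlap as for 6.8% of all features (0.61 ± 0.22, adjusted p = 0.908, limma). Ifnlr1, a subunit of the interferon lambda receptor, had -0.69 ± 0.43 at 1 h (adjusted p = 1, limma). Jak2, the gamma receptor's kinase, had 0.74 ± 0.26 between 2 h and 1 h (adjusted p = 0.627, limma).

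Some of the signalling inhibitors and other factors divided the arrays as Stat2 did, and others did not. Socs3, a feedback inhibitor of JAK kinases, read 330, 38.9 and 353 in untreated cells, 87.9, 14.3 and 85.9 after 1 h and 30.8, 439 and 36.9 after 2 h. Ptpn6, the SHP-1 phosphatase gene, read 3067, 1355 and 3089 in untreated cells, 2095, 1667 and 2019 after 1 h and 1187, 3013 and 1000.1 after 2 h. Both were high on untreated replicates 1 and 3 and on 2 h replicate 2. Ptpn2 ran the other way, with 41.2, 192 and 47.2 in untreated cells and 253, 41.4 and 219 after 2 h. Ptpn11 was highest of the untreated arrays on replicate 2, at 1503. Ptpn1 had 624, 685 and 624 at 2 h, against 537, 400 and 606 untreated, with no overlap as for 6.8% of all features. Irf4, a factor of activated B cells, also ran opposite to Socs3, with 4170, 556 and 4138 at 2 h, against 591, 4799 and 543 untreated. Irf3 read 1722, 2897 and 1705 in untreated cells and 2422, 1636 and 2073 after 2 h. Irf8 read 1359, 2440 and 1495 in untreated cells, 1400.1, 1474 and 1839 after 1 h and 2365, 1966 and 2191 after 2 h. Of 14 inhibitors and 6 other factors tested, 0 were called in any contrast by limma with all 9 arrays. In the fit without the 3 arrays numbered replicate 2, 7 inhibitors were lower and 1 higher at 2 h than untreated, and 4 of the other factors were higher and 1 lower. Array weights gave 7 lower and 1 higher inhibitors, and 3 higher and 1 lower factors.

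A second list of 38 tested interferon-stimulated genes had median differences of -0.20 at 1 h and -0.13 at 2 h against untreated, and 0 were called with all 9 arrays. With the 3 arrays numbered replicate 2 left out, 6 were lower at 1 h, where 3.39% of all features were lower and 3.95% higher. At 2 h 17 were then lower and 4 higher with a median of -0.35, where 19% of all features were lower and 15.7% higher. Array weights gave 14 lower and 4 higher at 2 h, where 18.6% of all features were lower and 15% higher. Ly6e read 5368, 3242 and 5363 in untreated cells, 4352, 1157 and 3812 after 1 h and 2852, 5295 and 3261 after 2 h. Tor3a read 682, 338 and 651 in untreated cells, 324, 339 and 218 after 1 h and 409, 818 and 438 after 2 h (-0.78 ± 0.32 at 1 h, adjusted p = 1, limma). Slfn2, a gene that restrains lymphocyte growth, was high on other arrays, with 98.5, 276 and 122 in untreated cells, 138, 422 and 131 after 1 h and 421, 110 and 405 after 2 h. Untreated replicate 2, 1 h replicate 2 and 2 h replicates 1 and 3 were high. Of 13 tested antigen presentation genes, 0 were called with all 9 arrays, and without the 3 arrays or with array weights 6 were lower and 1 higher at 2 h than untreated. B2m, the light chain of MHC class I, had differences of 0.02 ± 0.10 at 1 h and 0.06 ± 0.10 at 2 h. H2-K1, a class I heavy chain, had 2232, 2351 and 2505 at 2 h, against 1689, 1255 and 1920 untreated, with no overlap and with 2 h replicate 2 beside the others of its label (0.55 ± 0.17, adjusted p = 0.893, limma). In the other direction, H2-T23 (-0.11 ± 0.12) and Tap2 (-0.30 ± 0.11), a subunit of the peptide transporter, were below untreated on each 2 h array, both with adjusted p = 0.908 by limma. Such separation was found for 6.8% of all features upwards and 4.38% downwards. Of 13 sensors and adaptors, 0 were called with all 9 arrays, and without the 3 arrays 6 were lower and 2 higher at 2 h than untreated. In this list Ddx58, the RIG-I gene, had 85.9, 230 and 57.7 at 2 h, against 187, 89.2 and 187 untreated.

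Markers of other spleen cells were present at levels that varied by array, and sums of intensity are given for untreated, 1 h and 2 h arrays in that order. Each sum covers all markers of a list with a probe, dim ones included, with intensities below 0 counted as 0. Of 8 neutrophil markers with a probe, 8 were above noise, with sums of 959.8 to 5524, 755.7 to 4334 and 1128 to 3961. Of 5 erythroid markers, 4 were above noise and Hbb-b2 was not, with sums of 94.7 to 2396, 134 to 2673 and 229.6 to 2653. The highest sums of both lists were on untreated replicate 3, 1 h replicate 3 and 2 h replicate 1, where the interferon-stimulated genes had median centred levels of 0.31, 0.06 and -0.09. The 8 T cell markers with a probe, of which Cd3g, Cd4, Cd8a and Trat1 were dim, summed to 409, 297.8 and 426.6 in untreated cells, 377, 338.9 and 396 after 1 h and 237.5, 378 and 255.4 after 2 h. The 9 B cell markers with a probe, of which Cr2 was dim, summed to 37260, 36670 and 38710 in untreated cells, 37680, 31100 and 38060 after 1 h and 33580, 38200 and 31590 after 2 h. In both sums the array numbered 2 was the lowest untreated and 1 h array and the highest 2 h array. Median centred levels of the interferon-stimulated genes on those arrays were -0.17, -0.23 and 0.13. Single markers differed. On untreated replicate 2 Cd79b, Cd22, Ms4a1 and, close to noise, Pax5 were lowest of their label, but Cd74, Blk, Fcer2a and Ebf1 were highest. Cd74, the brightest B cell marker, read 20691, 24650 and 21931 in untreated cells. On 1 h replicate 2 Cd8b1, the brightest T cell marker, was highest of its label at 313, and Cd3e, Cd3d and Thy1 were lowest. The 9 macrophage and monocyte markers, of which C1qa, Cd5l and Ccr2 were dim, summed to 377.5, 182.2 and 749.2 in untreated cells, 314.9, 185.7 and 543.3 after 1 h and 505.6, 421 and 310.9 after 2 h. The 6 plasmacytoid dendritic cell markers, of which Ccr9, Klk1 and Cd209d were dim, summed to 2944, 2809 and 2313 in untreated cells, 2535, 2577 and 2538 after 1 h and 1920, 2918 and 2042 after 2 h. In this last sum too the array numbered 2 was the highest 2 h array, but it was not the lowest untreated or 1 h array. Most of the sum came from Tcf4, which read 1656, 2638 and 1730 after 2 h. Siglech and Cox6a2 were instead lowest of their label on untreated replicate 2 (42.1 and 179) and on 1 h replicate 2 (10.8 and 139). Their highest 2 h arrays were replicate 3 for Siglech (125) and replicate 1 for Cox6a2 (220). The 5 natural killer cell markers with a probe, of which Ncr1 and Klrb1c were dim, summed to 37.9 to 70.2 in untreated cells, 59.6 to 104 after 1 h and 39.5 to 54.2 after 2 h. The part of these cells in the results was not tested.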

How the data were processed

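Amplified, biotinylated cRNA of 9 samples was measured on Illumina arrays, per the labels' protocols. The deposited value table gives a linear intensity per probe. No software is named for it in the sources read. From the values, the authors' intensities had been background-subtracted (31.8% were below 0) and brought to a common level. Another table, of values before normalization, was left out because the names of its 9 columns match no sample. No pair of arrays was identical (0 pairs).

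Noise was taken from the values below 0 mirrored around 0, with the upper 0.05 tail as threshold. Probes above it on at least 3 arrays were kept, and the probe with the highest mean stood for its gene (11104 named genes and 3536 unnamed probes). GEO's platform annotation gave 1 symbol to 34885 probes, more than 1 to 18 and none to 10378, and 0 symbols changed when matched to RefSeq. Group means were fitted to log2(intensity + 50) with limma 3.58.1 (R 4.3.3), using all 9 arrays (6 residual degrees of freedom). P-values were two-sided and adjusted by Benjamini-Hochberg over 14640 features, with a threshold of 0.05. The offset understates changes of dim genes. Scripts were tested on simulated data.

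The members and lists were chosen with earlier results of these data known. Values on every array were given for members with the 3 largest positive and negative differences per contrast, the 3 largest ranges, the 3 highest means, and Irf1, Irf7, Irf9, Stat2, Isg15, Isg20, Ifit3 and Bst2. Gbp2, Gbp3, Ifit2, Usp18, Dhx58, Eif2ak2, Oasl2 and, of the other lists, Tap2 and Ptpn2 were added after their values were seen. Deviations of same-numbered arrays from their label's mean correlated at 0.243 to 0.572 in all 3 pairs of 1 h and untreated arrays. Among differently numbered arrays, 1 h replicate 1 with untreated replicate 3 had 0.531 and 1 h replicate 3 with untreated replicate 1 had 0.152. Those that joined a replicate 2 with another number had -0.633 to -0.229. The correlations thus set the arrays numbered 2 apart but do not pair numbers 1 and 3, and the labels give no pairing. Deviations in same-numbered pairs with 2 h arrays, which are not paired, correlated at -0.787 to -0.343. Alternatives covered the offset, normalization, filter, probe, replicate block, variance model, array weights, threshold and arrays in the fit. The number of arrays limits the precision, and no sequencing depth applies.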

Additional observations from a re-analysis of the deposited data

How the results depend on the processing

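Of the 6 counts of called members that moved, all came from array weights or from leaving out the 3 arrays numbered replicate 2. With array weights, 12 members were called at 2 h against untreated, where 18.6% of all features were lower and 15% higher. Across the groups 10 were called with them, where 23.8% of all features were. Without the 3 arrays, 4 were called at 1 h and 15 at 2 h against untreated, 12 between the times and 15 across the groups, and the median difference between 2 h and 1 h was -0.29. Of all features in that fit, 3.39% were lower and 3.95% higher at 1 h, and 19% and 15.7% at 2 h. Between the times 13.7% were lower and 12.1% higher, and 35.1% were called across the groups. The other 48 counts stayed at 0, among them those with offsets of 16 and 100, quantile normalization, other filters, a variance trend, a robust variance or a threshold of 0.10, and without any 1 array the counts were 0 in every comparison. Fits without 1 array moved the members' median from -0.29 to 0.03 (1 h against untreated), from -0.36 to -0.10 (2 h against untreated) and from -0.17 to 0.05 (2 h against 1 h). Other settings moved this median by over 1.5 times. At 1 h against untreated it was -0.32 with an offset of 16, -0.0982 with 100, -0.0756 without the filter and -0.10 with array weights, beside -0.17. At 2 h against untreated it was -0.13 with an offset of 100, -0.12 without the filter, -0.36 for probes above noise on all 9 arrays and -0.41 without the 3 arrays, beside -0.23. At 2 h against 1 h it was -0.12 with an offset of 16, -0.0368 with 100, -0.11 above noise on all 9 arrays, -0.0337 with averaged probes and -0.20 with array weights, beside -0.06.

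With the replicate number as a replicate block, 0 members were called in each comparison, both in the fit to 9 arrays and in fits to the 6 arrays of each comparison, an alternative chosen after seeing the data. Without the 3 arrays numbered 2, the sign turned for Rtp4 (0.0468), Irf1 (0.16) and Bst2 (-0.0868) in 1 h against untreated, and for Ifit3 (-0.0959) and Bst2 (-0.0279) in 2 h against untreated, and for Ifitm3 (0.17), Isg15 (0.0358), Samd9l (-1.18), Oasl1 (-0.0797) and Bst2 (0.0589) in 2 h against 1 h. With array weights it turned for Irf1 (0.0995) in 1 h against untreated, and for Ifit3 (-0.0352) in 2 h against untreated, and for Ifitm3 (0.0523) and Samd9l (-0.85) in 2 h against 1 h. With an offset of 100 it turned for Samd9l (-0.0032) in 2 h against 1 h. With the mean of the probes it turned for Irf1 (0.0770) in 1 h against untreated. In 1 h against untreated, fits without 1 array spanned both signs for Adar (-0.0274 to 0.31), Bst2 (-0.0906 to 0.38), Ifit3 (-0.0169 to 0.13), Irf1 (-0.20 to 0.23), Parp14 (-0.66 to 0.13), Rtp4 (-0.15 to 0.0150) and Samd9l (-1.10 to 0.11). In 2 h against untreated, fits without 1 array spanned both signs for Bst2 (-0.0931 to 0.14), Ifit3 (-0.0394 to 0.11), Ifitm3 (-0.20 to 0.23), Isg20 (-0.18 to 0.18), Oasl1 (-0.17 to 0.12) and Rtp4 (-0.0298 to 0.13). In 2 h against 1 h, fits without 1 array spanned both signs for Bst2 (-0.36 to 0.11), Dtx3l (-0.67 to 0.19), Ifit3 (-0.0790 to 0.0442), Irf9 (-0.46 to 0.17), Isg15 (-0.13 to 0.0049), Oasl1 (-0.0088 to 0.28), Samd9l (-0.65 to 0.36), Stat2 (-0.66 to 0.0365) and Trim25 (-0.87 to 0.13). The cause was not tested. Of 14 members with several kept probes, probe signs disagreed for 2 members (1 h against untreated), 2 members (2 h against untreated) and 8 members (2 h against 1 h). Signals close to noise limit Isg15, Irf7, Rtp4, Oasl1 and the 7 dim members.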
